A study of Mus musculus with 10 samples.

Results

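CpG methylation was described at the transcript starts of 9 genes of insulin, mTOR and ageing signalling in mouse MII oocytes, which are mature eggs arrested at the second meiotic metaphase. The genes were Ins2, Insr, Igf1r, Akt1, Foxo3, Tsc1, Tsc2, Mtor and Stk11. They were chosen by name, with earlier results of these data known. Every deposited 2000 bp promoter window whose centre lay within 200 bp of an annotated start of one of them was taken. This gave 20 of the 40537 nuclear windows listed for all 3 groups, at 8 of the 9 genes. Igf1r had none, because its nearest window was centred 569 bp from its RefSeq start, the only start available for it. That window carries an Ensembl transcript identifier, and Ensembl starts could not be matched to genes here. The windows of one gene overlap and share calls (6 at Ins2, 4 at Foxo3, 3 at Tsc1, 2 each at Tsc2 and Mtor, 1 each at Insr, Akt1 and Stk11), so the 20 windows stand for 8 separate loci.

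The oocytes came from 2-month-old Tet2 knockout females (Tet2KO, 3 libraries), 11-month-old wild-type females (WT, 3 libraries) and 2-month-old WT females (4 libraries), all of a mixed C57BL6/129 background. Tet2 encodes a dioxygenase that oxidises 5-methylcytosine, and the labels do not give the knockout allele or the number of females. The input is uncertain, since the labels give 10 oocytes a sample in one place and a single oocyte in another. Low-input bisulfite sequencing reads methylcytosine and its oxidised form hydroxymethylcytosine alike, so each level covers both.

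The libraries of each group were deposited as a single pooled value per window. A level is the percentage of CpG calls in a window that were methylated, and a difference is given in percentage points. The Tet2KO and 11-month WT pools differ in both genotype and age, which cannot be told apart in that comparison. No difference has a replicate check and no p-value is given. The 95% intervals (Wilson for levels, Newcombe for differences) cover counting error only, not the spread between females or libraries, and calls of one read or of PCR copies are not independent. The tables held 8610762 calls for Tet2KO, 30431118 for 11-month WT and 15046863 for 2-month WT, of which 36.5% to 44.2% were mitochondrial, and the median shared window held 79, 245 and 131 calls in that order. Of 12 measured promoters listed for maternally imprinted loci, 8 lay over 80% in Tet2KO, 9 in 11-month WT and 9 in 2-month WT. The others went the other way or fell short: Grb10 and Inpp5f were at 2.38% or less in every pool, and Peg10 was at 65% to 70.1%. Mcts2 was at 75% in Tet2KO. H19, methylated in sperm, was at 2.5% in Tet2KO, 1.61% in 11-month WT and 4.21% in 2-month WT.

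Insulin and insulin-like growth factors bind receptor tyrosine kinases at the cell surface, which activate PI3-kinase and, through it, the kinase AKT. AKT keeps FOXO transcription factors out of the nucleus and relieves the block that the TSC complex places on the growth kinase mTOR, while LKB1 (the product of Stk11) restrains mTOR through AMP-activated kinase when energy is low. In the mouse ovary this pathway sets how many primordial follicles leave dormancy, and loss of Foxo3, Tsc1 or Tsc2 in mouse oocytes activates them early. In many animals reduced signalling through it extends lifespan.

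Promoter sequence was read from RefSeq (build GRCm38.p6, the build that mm10 represents), which held entries for 7 of the 9 genes, each of 300 bases from 250 bases before to 50 bases after the start. Akt1, Stk11 and Foxo3 are shown because they are similarly rich in CpG, the dinucleotide that carries the methylation measured here. They were also picked because the order of their pools differed, and the part of CpG content in that order was not tested. Capitals mark each CpG, and the strands are minus for Akt1 and Foxo3 and plus for Stk11.
Akt1 (chr12:112674227-112674526): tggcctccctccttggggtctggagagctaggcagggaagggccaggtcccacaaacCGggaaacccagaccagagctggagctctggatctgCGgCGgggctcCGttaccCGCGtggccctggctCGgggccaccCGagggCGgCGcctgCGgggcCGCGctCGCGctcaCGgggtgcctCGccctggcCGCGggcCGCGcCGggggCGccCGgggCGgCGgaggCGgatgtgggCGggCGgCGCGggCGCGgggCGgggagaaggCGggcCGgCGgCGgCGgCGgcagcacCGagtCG
Stk11 (chr10:80115545-80115844): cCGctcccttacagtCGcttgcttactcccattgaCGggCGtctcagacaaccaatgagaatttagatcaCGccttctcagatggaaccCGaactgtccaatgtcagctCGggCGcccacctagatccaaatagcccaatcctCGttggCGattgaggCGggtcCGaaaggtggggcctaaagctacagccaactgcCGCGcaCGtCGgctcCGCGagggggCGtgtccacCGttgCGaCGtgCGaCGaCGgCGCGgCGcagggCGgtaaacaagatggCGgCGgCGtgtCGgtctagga
Foxo3 (chr10:42276646-42276945): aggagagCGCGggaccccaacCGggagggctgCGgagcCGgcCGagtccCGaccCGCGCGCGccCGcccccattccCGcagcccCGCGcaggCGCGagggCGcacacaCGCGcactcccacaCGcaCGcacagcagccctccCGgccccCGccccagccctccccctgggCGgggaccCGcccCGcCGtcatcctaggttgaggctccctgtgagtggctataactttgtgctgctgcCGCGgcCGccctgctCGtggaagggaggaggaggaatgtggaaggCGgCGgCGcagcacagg
The 300 bases held 42 CpGs at Akt1, 33 at Stk11 and 35 at Foxo3. A second Akt1 start in the same measured window (chr12:112674835-112675134) had 8 CpGs, more than 51.35% of promoters. The median over the 32851 promoters of that table was 7 CpGs, and the counts of the 3 printed promoters exceeded those of 97.0%, 91.4% and 93.0% of them. Tsc2 had 29 CpGs, Mtor 21, Tsc1 20 and Igf1r 48. The measured windows reach beyond the printed stretch on both sides.

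Foxo3, Tsc1 and Mtor were under 5% at their starts in every pool, Akt1, Stk11 and Tsc2 reached 8.06% to 15.7% in their highest pool, and Insr and Ins2 went further, to 94.9% and 55.3%. At 1 window per gene (chosen for the largest call number in its least covered pool), the median level of the 8 genes was 1.42% in Tet2KO, 3.61% in 11-month WT and 7.45% in 2-month WT. Over 15617 genes counted in the same way the medians were 1.75%, 2.28% and 2.53%. Levels under 5% were found at 5 of the 8 genes in Tet2KO, 6 in 11-month WT and 4 in 2-month WT. Most of the 15617 genes were also under 5%: 11175 in Tet2KO, 11048 in 11-month WT and 10158 in 2-month WT. The 3 pools ranked the members differently: Insr was highest in Tet2KO and in 2-month WT, and Ins2 was highest in 11-month WT. In Tet2KO the intervals of Insr and Ins2 overlapped, so their order there is not resolved by counting.

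**Figure D1:**
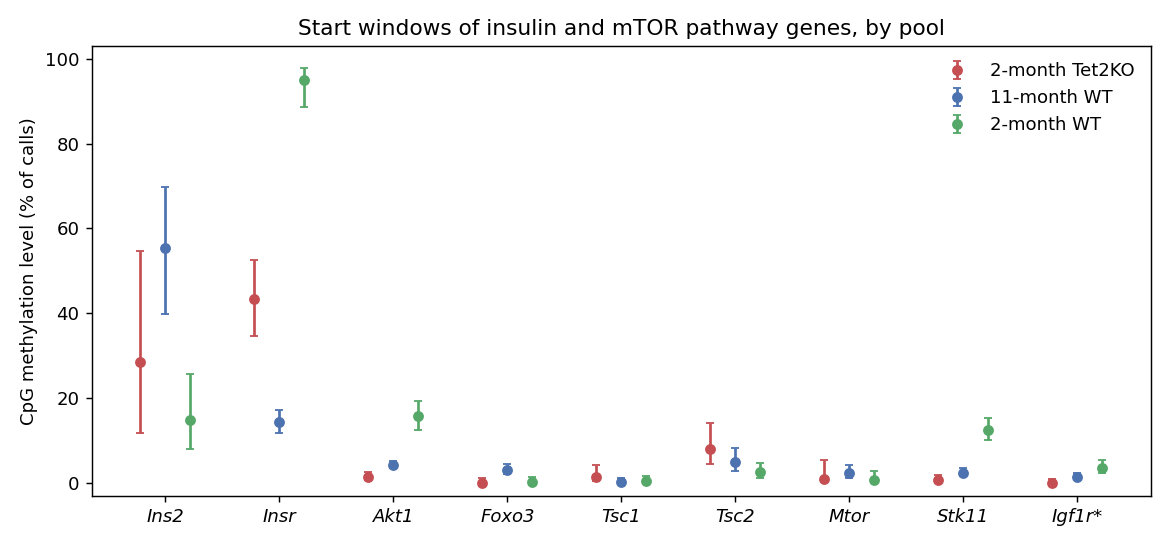
CpG methylation level (percentage of calls) at the start window of each gene in 2-month Tet2KO, 11-month WT and 2-month WT pools; points are pooled values and bars Wilson 95% intervals (counting error only). Igf1r* is the nearest window, 569 bp from the RefSeq start and outside the distance rule. Insr spans 14.3% to 94.9% and Ins2 14.8% to 55.3%, while Foxo3, Tsc1 and Mtor stay at 3.0% or less.

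Insr, which encodes the insulin receptor, had the widest range of all members. Its window (chromosome 8, 3278618 to 3280617, mm10) was centred 32 bp from the upper end of the gene. It was at 43.4% in Tet2KO (49 of 113, interval 34.6 to 52.6), 14.3% in 11-month WT (92 of 642, 11.8 to 17.3) and 94.9% in 2-month WT (93 of 98 CpG calls, 88.6 to 97.8). The 3 intervals did not overlap: 2-month WT was high, 11-month WT low and Tet2KO in between. The 11-month WT level differed from that of 2-month WT by -80.6 points (interval -84.4 to -73.6), and 0.0567% of all shared windows were lower by at least as much. Tet2KO differed from 2-month WT by -51.5 points (-60.8 to -40.4), a size that 0.353% of windows reached in that direction. Tet2KO was higher than 11-month WT by 29.0 points (19.8 to 38.6).

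The number of CpG positions behind these Insr levels differed with the pool. Calls fell on 60 positions in Tet2KO, 95 in 11-month WT and 46 in 2-month WT, so fewer sites were seen in the pool with the highest level. Calls per covered position were 1.88, 6.76 and 2.13 in that order. The part of this coverage in the difference was not tested. The deposited fraction, which gives each covered position equal weight, was 42.2% in Tet2KO, 14.0% in 11-month WT and 94.6% in 2-month WT, close to the share of calls in every pool. In all, 22 of the 40537 windows were at 90% or more in 2-month WT and at 20% or less in 11-month WT, limits chosen after the Insr values were seen.

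A second window inside Insr had its levels in the same order as the one at its start, but only the age difference was resolved by counting. It was centred 19946 bp into the gene from the RefSeq start (chromosome 8, 3258704 to 3260703), at the start of an Ensembl transcript. Its level was 66.7% of 30 calls in Tet2KO (48.8 to 80.8), 48.3% of 58 in 11-month WT (35.9 to 60.8) and 93.3% of 15 in 2-month WT (70.2 to 98.8). The 11-month level was below that of 2-month WT by more than counting error (difference -45.1, -58.6 to -18.7). The intervals for Tet2KO included 0, both against 2-month WT (difference -26.7, -45.4 to 0.441) and against 11-month WT (difference 18.4, -3.47 to 37.1). Within 100 kb the one other shared window, at the start of Arhgef18, was methylated in 22 of 23 calls in Tet2KO, 66 of 68 in 11-month WT and 19 of 20 in 2-month WT. The spread between pools at Insr was thus not seen at that neighbour.

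Ins2, one of the mouse insulin genes, was the most methylated member at 11 months. Its 6 windows gave almost the same values, and the one described (chromosome 7, 142678686 to 142680685) was at 28.6% in Tet2KO (4 of 14 calls, 11.7 to 54.6), 55.3% in 11-month WT (21 of 38, 39.7 to 69.9) and 14.8% in 2-month WT (9 of 61, 7.96 to 25.7). The intervals of both WT pools were apart, and that of Tet2KO overlapped each of them. The level was higher by 40.5 points in 11-month than in 2-month WT (21.5 to 56.6). The difference between Tet2KO and 2-month WT was 13.8 points (-6.29 to 40.8) and that between Tet2KO and 11-month WT -26.7 points (-49.0 to 3.67), neither resolved at this depth. By the deposited fraction the levels were 32.5% in Tet2KO, 47.4% in 11-month WT and 18.3% in 2-month WT. The window had 10, 14 and 15 covered CpG positions in Tet2KO, 11-month WT and 2-month WT, beside medians of 41, 59 and 49 over all shared windows. Covered positions depend on depth, and the CpG content of this window was not counted.

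The distance limit passed through Ins2 and Igf1r. The Ins2 window farthest from the annotated start, at 193 bp, was at 30.8% in Tet2KO, 55.6% in 11-month WT and 15.8% in 2-month WT. The Igf1r window at 569 bp, which covers the start of this receptor gene but was left out of all counts, was at 0% of 448 calls in Tet2KO (a count of 0 allows up to 0.67%), 1.49% of 1343 in 11-month WT and 3.57% of 589 in 2-month WT. Both intervals of its differences from 2-month WT lay below 0 (-5.39 to -2.08 for Tet2KO and -3.97 to -0.616 for 11-month WT), although the level was low in every pool.

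Ins2 lies in an imprinted cluster next to Igf2, the gene of a fetal growth factor, and the windows around it differed in their order. The nearest of them, at a start of Igf2 (-12869 bp from the Ins2 window, negative towards lower coordinates), was at 47.6% of 21 calls in Tet2KO, 8.57% of 105 in 11-month WT and 55.2% of 29 in 2-month WT. There 11-month WT was the lowest pool, while at Ins2 it was the highest. A further Igf2 start, at -18380 bp, was at 0% of 90 calls in Tet2KO, 1.28% of 467 in 11-month WT and 1.89% of 159 in 2-month WT. In 4 other windows within 100 kb 11-month WT was the highest pool, although at lower levels than at Ins2. In each of these 4 the interval of its difference from 2-month WT included 0, so that order is not resolved by counting. The windows at -20196 and -19993 bp also overlap and share calls. The most methylated of the 4, with no gene name (-24689 bp), was at 6.67% in Tet2KO, 18.8% in 11-month WT and 15.5% in 2-month WT.

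Akt1 and Stk11 shared a pattern of low methylation that was somewhat higher in 2-month WT. Akt1 encodes a kinase activated downstream of the insulin receptor. Its window (chromosome 12, 112673277 to 112675276) was at 1.40% of 642 calls in Tet2KO, 4.21% of 1946 in 11-month WT and 15.7% of 434 in 2-month WT, and the 3 intervals did not overlap (0.739 to 2.64, 3.41 to 5.20 and 12.6 to 19.4). Its differences from 2-month WT were -14.3 points for Tet2KO (-18.0 to -10.9) and -11.5 points for 11-month WT (-15.3 to -8.19). Both are below the 20 points used for counting. Among all windows, 5.49% were lower by as much in Tet2KO and 6.56% at 11 months.

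Stk11 encodes LKB1, the kinase that activates AMP-activated kinase. Its window (chromosome 10, 80114803 to 80116802) was at 0.648% of 463 calls in Tet2KO, 2.43% of 1192 in 11-month WT and 12.4% of 644 in 2-month WT. The 2-month WT interval, 10.1 to 15.2, lay above both others. The differences from 2-month WT were -11.8 points for Tet2KO (-14.6 to -9.14) and -9.99 points for 11-month WT (-12.9 to -7.44). By the deposited fraction they were smaller, at -8.33 and -6.25 points. Among all windows, 7.10% were lower by as much in Tet2KO and 7.75% at 11 months, so differences of this size were not rare.

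Foxo3, the transcription factor that holds mouse primordial follicles dormant, was almost unmethylated. The window (chromosome 10, 42275753 to 42277752) had 0 of 328 methylated calls in Tet2KO, which allows up to 0.915%, 26 of 867 (3.0%) in 11-month WT and 1 of 386 (0.259%) in 2-month WT. The 11-month pool was higher than 2-month WT by 2.74 points (1.22 to 4.12), and Tet2KO was lower than 11-month WT by 3.0 points (difference -3.0, -4.36 to -1.50). Such sizes were common: 19.5% of all windows were higher by as much with age, and 19.55% lower by as much in Tet2KO than in 11-month WT. Unlike Akt1 and Stk11, Foxo3 had its highest level in 11-month WT and not in 2-month WT. The part of CpG content in this was not tested.

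Tsc1 and Tsc2 encode the proteins hamartin and tuberin, which together inhibit mTOR signalling. Tsc1 was at 1.43% of 210 calls in Tet2KO, 0.201% of 498 in 11-month WT and 0.444% of 450 in 2-month WT, with overlapping intervals. Tsc2 was at 8.06% of 124 calls in Tet2KO (4.44 to 14.2), 4.92% of 264 in 11-month WT (2.90 to 8.24) and 2.48% of 323 in 2-month WT (1.26 to 4.81). Tsc2 was the one member whose level in Tet2KO exceeded that in 2-month WT by more than counting error, by 5.59 points (1.28 to 11.9). Its start faces that of Nthl1, a DNA repair glycosylase gene, and the windows cover both. Mtor, the kinase itself, was at 1.0% of 100 calls in Tet2KO, 2.23% of 359 in 11-month WT and 0.778% of 257 in 2-month WT, and every difference interval included 0.

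The 20-point count separated Insr and Ins2 from the other members. Of the 20 windows, 6 were higher at 11 months than at 2 months, all of them at Ins2, and 1 was lower, that of Insr. Over all shared windows 2.78% were higher and 2.76% lower. In Tet2KO against 2-month WT, 0 windows were higher and 1 was lower (Insr), against 3.29% and 3.22% of all windows. In Tet2KO against 11-month WT, 1 was higher (Insr) and 6 were lower (Ins2), against 2.09% and 1.94%. Counted as genes, each of these entries is 1 of 8 or 0 of 8, and the percentages over 15617 genes were 2.17% higher and 2.38% lower with age, 2.68% and 2.86% in Tet2KO against 2-month WT, and 1.78% and 1.45% in Tet2KO against 11-month WT. With 8 genes, 1 gene cannot be told from these background shares. The age comparison and that of Tet2KO with 2-month WT share the 2-month WT pool, so a value particular to that pool enters both.

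**Figure D2:**
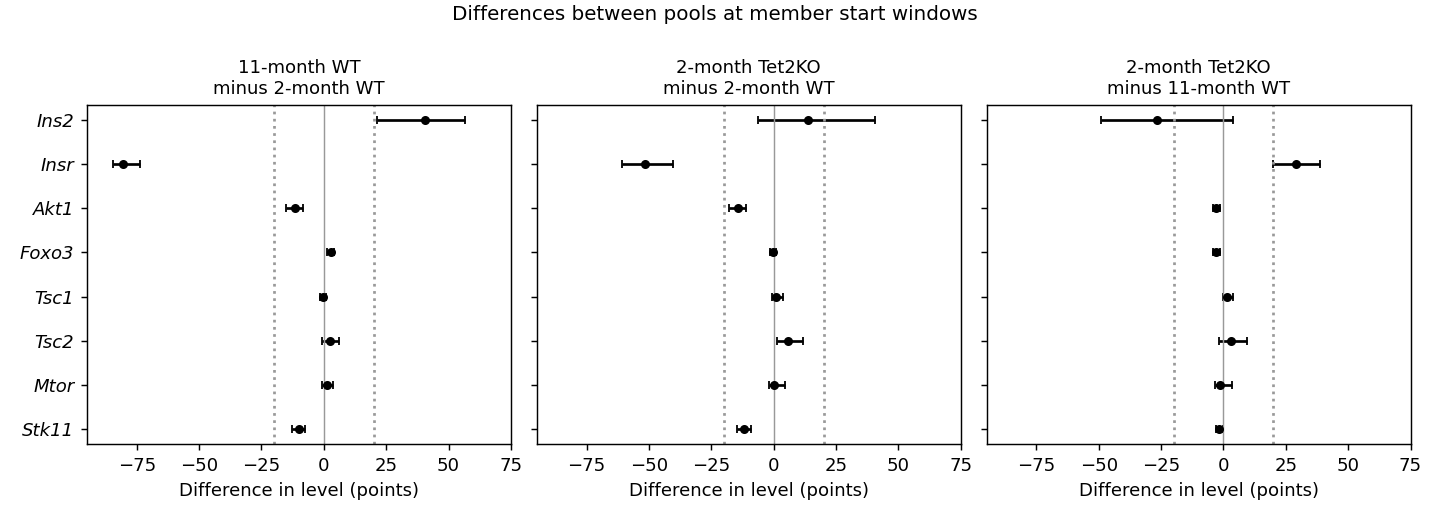
Differences in methylation level (percentage points) at 1 start window per gene, with Newcombe 95% intervals (counting error only), for 11-month WT minus 2-month WT, 2-month Tet2KO minus 2-month WT, and 2-month Tet2KO minus 11-month WT; dotted lines mark 20 points. Insr stands at -80.6, -51.5 and 29.0 points, and Ins2 at 40.5, 13.8 and -26.7.

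Members differed in both directions, so their median difference describes no single gene. With age it was 2.59 points over the 20 windows and 0.603 over 8 genes, beside 0 over all windows. For Tet2KO against 2-month WT it was 0.984 over the windows and -0.0186 over the genes, beside -0.241 over all windows. For Tet2KO against 11-month WT it was -2.91 and -1.51, beside -0.394. At 1 window per gene, 4 genes were higher and 4 lower with age, and the same split was found in Tet2KO against 2-month WT. Among those, the counting interval lay above 0 for 2 genes (Ins2, Foxo3) and below it for 3 (Insr, Akt1, Stk11) with age. In Tet2KO it lay above 0 for 1 (Tsc2) and below for 3 (Insr, Akt1, Stk11). The same interval count was not made over all genes, so whether these numbers are unusual cannot be said.

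Further inside the member genes the windows were almost fully methylated, in contrast to the starts. Outside Insr, 7 windows lay inside Akt1, Tsc1, Mtor or Stk11 without covering the RefSeq start of that gene. Each is the deposited window of some Ensembl transcript, and 4 of the 7 are centred within 200 bp of an end of another annotated gene: Mir6939 in Akt1, and Angptl7, Gm24002 and Gm23318 in Mtor. They were at 88.9% to 100% in Tet2KO, 95.5% to 100% in 11-month WT and 91.9% to 100% in 2-month WT. At Akt1 the step was sharp: the window 2712 bp inside was at 96.2% in Tet2KO, 99.5% in 11-month WT and 96.5% in 2-month WT. At Stk11 the window 9579 bp inside was at 100% of 42 calls, 98.7% of 153 and 96.1% of 51. In 2-month WT the level at the Insr start, 94.9%, was in the range of these inner windows.

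**Figure D3:**
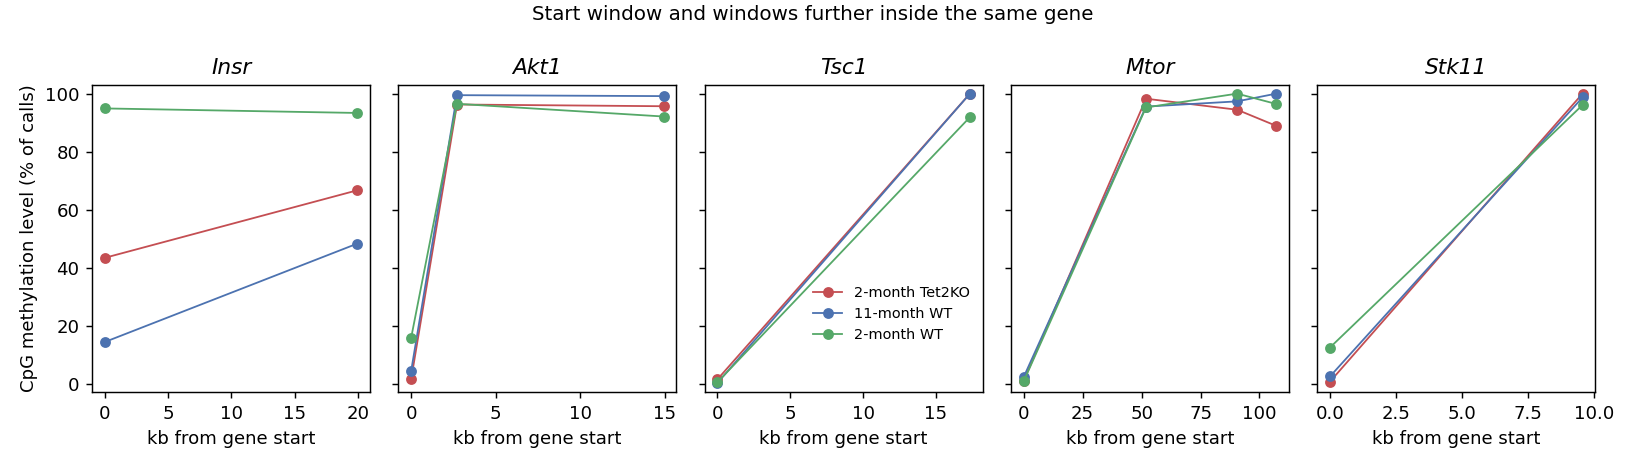
CpG methylation level (percentage of calls) of the start window (at 0) and of windows further inside 5 genes, by distance from the gene start in kb, for 2-month Tet2KO, 11-month WT and 2-month WT pools; lines join windows of one pool and nothing was measured between them. Windows inside Akt1, Tsc1, Mtor and Stk11 lie at 88.9% to 100% in all pools, and those of Insr at 48.3% to 93.3%.

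Few genes matched Insr closely, and several matched Ins2. Likeness was the Euclidean distance between the 3 pool levels, in points, over the 22378 named windows that held 30 or more calls in each group; it says nothing of shared function. The nearest to Insr were Rap1gap2 (18.7 points away), Topaz1 (24.9), Hspb9 (26.4), the start shared by Pdzk1 and 4930442L01Rik (29.9) and Zfp128 (33.5). Rap1gap2, which encodes a regulator of the GTPase Rap1, was at 33.6% in Tet2KO, 29.98% in 11-month WT and 98.0% in 2-month WT. The nearest to Ins2 were Angptl8 (6.19), the overlapping windows of Kctd21 and Usp35 (6.82) and of Usp35 (8.39), Csrp1 (8.42) and Arl2bp (8.94). Angptl8, a regulator of lipoprotein lipase, was at 34.6% in Tet2KO, 54.1% in 11-month WT and 14.1% in 2-month WT, from 52, 159 and 149 calls. The closeness to Ins2 rests on its own 14 calls in Tet2KO.

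Most starts of the wider pathway were also low. Of 78 further genes, also listed with earlier results of these data known, 70 had a start window in all pools. Their median level was 1.35% in Tet2KO, 1.94% in 11-month WT and 2.37% in 2-month WT. Median differences were -0.306 points with age and -0.949 in Tet2KO against 2-month WT. By 20 points, 0 genes were higher and 6 lower in each of those comparisons, beside 2.38% lower with age and 2.86% lower in Tet2KO among all genes, and 0 were higher or lower in Tet2KO against 11-month WT. The 5 adaptor genes, such as Irs1 and Grb2, which link receptors to downstream kinases, stayed between 0.446% and 2.38% in every pool. The 7 measured targets of mTOR complex 1, among them Rps6kb1 and Eif4ebp1, stayed between 0.413% and 6.22%. Among 17 genes of amino acid sensing by mTOR complex 1, 6 were higher and 11 lower with age, and 5 were higher and 12 lower in Tet2KO against 2-month WT. Over the 15617 genes, 7638 were higher and 7467 lower with age, and 5960 were higher and 8411 lower in Tet2KO. Ins1, Igf1, Irs2, Pik3ca, Rheb, Rptor and Foxo4 were among the genes with no shared window by the distance rule and were not analysed here.

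The group with most of these genes was listed as growth hormone and IGF binding: the growth hormone receptor gene Ghr, the Igfbp genes and the klotho gene Kl, which encodes a co-receptor for a fibroblast growth factor. Among its 9 genes, 5 were lower by 20 points or more both at 11 months and in Tet2KO: Igfbp3, Igfbp4, Igfbp5, Igfbp6 and Igfbp7. Over all genes 2.38% were lower by as much at 11 months and 2.86% in Tet2KO, and the share lower in both was not counted. Both comparisons use the same 2-month WT pool, so they are not separate observations. The group was singled out by this same count. The products of Igfbp3, Igfbp4, Igfbp5 and Igfbp6 bind insulin-like growth factors outside the cell and limit their access to the receptor. The other 4 genes, Ghr, Igfbp1, Igfbp2 and Kl, were at 0.833% to 7.0% in 2-month WT.

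In these 5 genes 2-month WT was the highest pool, and the other pools were at 5.13% or less. Igfbp5 (chromosome 1, 72873885 to 72875884) was at 5.13% of 39 calls in Tet2KO (interval 1.42 to 16.9), 0.348% of 287 in 11-month WT and 39.4% of 226 in 2-month WT. Its Tet2KO level was above that of 11-month WT by 4.78 points (0.740 to 16.5). Igfbp7 was at 2.09% of 191 calls, 0.804% of 1119 and 38.5% of 794 in Tet2KO, 11-month WT and 2-month WT. Igfbp4 was at 0.763% of 262 calls, 1.56% of 835 and 36.4% of 467 in the same pools. These were intermediate levels in 2-month WT, unlike the nearly complete methylation of Insr. Igfbp6 was at 0% of 65 calls in Tet2KO, which allows up to 4.62%, at 2.01% of 398 in 11-month WT and at 28.3% of 173 in 2-month WT. Igfbp3 was at 0% of 365 calls, which allows up to 0.822%, 1.02% of 1467 and 21.2% of 788. In both comparisons with 2-month WT the difference intervals of these 5 genes lay below 0. The bound nearest to 0 was -17.4, at Igfbp3 with age. The 5 genes were picked by the size of these same differences. Their intervals are therefore no separate check and give only the counting error.

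The size of these differences depended on the measure used. By the deposited fraction Igfbp3 differed by -14.0 points with age and -16.6 in Tet2KO, so that 4 of 9 genes passed 20 points instead of 5. Igfbp4 was then at -22.6 and -22.9 points and Igfbp7 at -26.1 and -24.4, while Igfbp6 was at -35.3 and -36.7. Calls per covered position in 2-month WT were 3.76 to 7.22 at these 5 genes, against a median of 2.80 over all shared windows, and their part in the levels was not tested. The remaining gene past 20 points was Rraga, a GTPase that brings mTOR complex 1 to the lysosome, at 0.709% of 141 calls in Tet2KO, 2.34% of 599 in 11-month WT and 25.5% of 220 in 2-month WT.

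**Figure D4:**
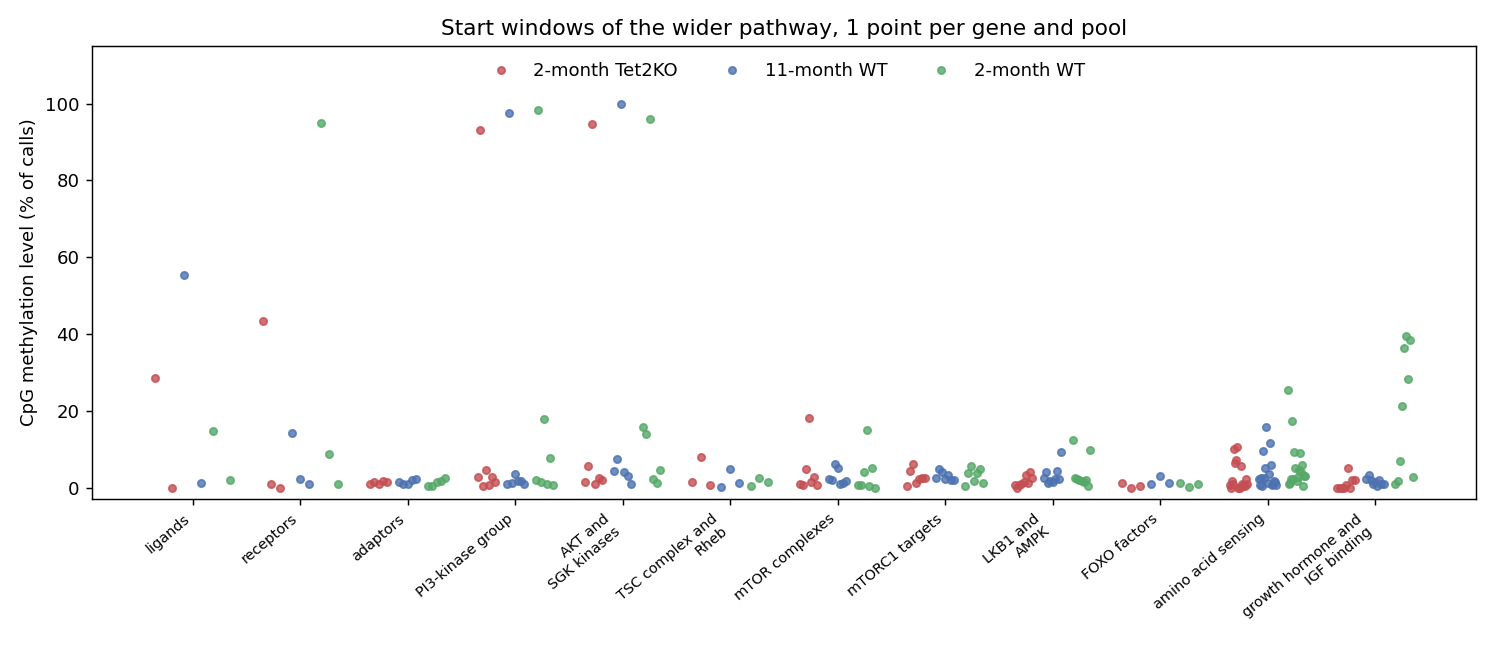
CpG methylation level (percentage of calls) at 1 start window per gene for 78 measured genes of the wider pathway, members included, grouped by role, in 2-month Tet2KO, 11-month WT and 2-month WT pools; each point is 1 gene. The 5 points between 21.2% and 39.4% in the group of growth hormone and IGF binding are Igfbp3 to Igfbp7 in 2-month WT.

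A few genes of the wider list were methylated at their starts in every pool. Pik3cd, a catalytic PI3-kinase subunit gene, was at 93.1% in Tet2KO, 97.6% in 11-month WT and 98.3% in 2-month WT. The window of Sgk1, a kinase related to AKT, was at 94.7%, 100% and 96.0% in the same pools. Others, like Akt1 and Stk11, had their highest level in 2-month WT: Pik3r2, a regulatory PI3-kinase subunit gene, was at 4.52% in Tet2KO, 3.42% in 11-month WT and 17.9% in 2-month WT, and Akt2 at 5.56%, 7.31% and 13.9%. Akt1s1, an mTOR complex 1 inhibitor gene, was instead lowest at 11 months, at 18.2% in Tet2KO, 5.02% in 11-month WT and 15.1% in 2-month WT.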

How the data were processed

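Bisulfite libraries of 10 oocyte samples in 3 groups were deposited as 1 pooled table per group. The submitters' processing notes name Trimmomatic, Bismark (version field 12.5) and mm10, without roles; for the remaining steps nothing was found in the sources. The authors deposited counts of methylated and of all CpG calls for each 2000 bp window. The deposited fraction is the mean methylated share over covered positions. No listed window has fewer than 10 calls or 5 covered positions. Windows carry Ensembl identifiers that the reference tables do not name, so they were assigned by position: starts were those of the RefSeq promoter table (GRCm38.p6) and the 5′ end of the RefSeq gene, and both gene ends for Insr and Ins2, whose strand it does not give. An incomplete final line, on chromosome X, was dropped from the 2-month WT file.

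Levels were 100 times methylated over all calls (Python 3.11.15, pandas 2.3.3). A count model had been planned in case values per library were given; with pooled values none was run and differences were described. A count of 0 was given an upper limit of 3 counts. Named genes were all members, pathway genes 20 points or more apart in any comparison (at most 10), and the 5 closest windows to the 2 members of widest range; the other genes named for the wider list were chosen after their values were seen. The members and lists were chosen with earlier results of these data known. Interval and counting code was tested on simulated data. Alternatives were the deposited fraction, call minimums of 20 and 50, 1 window per gene or overlapping cluster, a 500 bp distance, removal of windows of high calls per position, and thresholds of 10 and 30 points.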

Additional observations from a re-analysis of the deposited data

How the results depend on the processing

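The Insr difference kept its direction and its size of 20 points or more in the 3 comparisons by the deposited fraction. Counts of member windows past 20 points changed mainly through Ins2, which has 6 overlapping windows and 13 or 14 calls in Tet2KO. With at least 20 or at least 50 calls in every pool, the windows higher with age numbered 0 and those lower in Tet2KO than in 11-month WT numbered 0, since all Ins2 windows leave. With 1 window per gene, or per overlapping cluster, both counts were 1. By the deposited fraction, 0 windows were lower in Tet2KO than in 11-month WT. At 10 points, 2 windows were lower with age, and in Tet2KO against 2-month WT 6 were higher and 3 lower. At 30 points, 0 were higher and 0 lower in Tet2KO against 11-month WT. A distance of 500 bp kept the same 20 windows, and the removal of windows of high calls per position removed 0 of them. Neither alternative could therefore change a count. Medians moved by less than the median half-width of the members' intervals under every alternative run. Of 42 differences of single windows by the deposited fraction, 29 stayed within their counting interval, 13 moved beyond it, and none of 20 points or more changed sign. Mtor in Tet2KO against 2-month WT went to -0.125 points by that fraction, against 0.222 by calls. The counts for the wider list, with 2 alternatives chosen after seeing the data, stayed within 1.5 times. No paired analysis was possible because each table holds 1 pooled value per group, and for the same reason no replicate could be left out. Depth limits Ins2 most: 14 calls in Tet2KO cannot separate it from either WT pool.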
